A study of Homo sapiens with 32 samples.

Results

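The measurement described here is the dependence of the TGFβ1 response on JUNB genotype after 72 h of treatment. It was taken as a difference of changes, namely the log2 change from solvent to 72 h of TGFβ1 in JUNB-mutated (mut) cells minus the same change in wild-type (WT) cells. Its members are 16 of the 32 RNA-seq libraries of the series, that is, the solvent and the 72 h library of each of 8 clone replications. They were chosen by clone, replication and time point alone and give 4 paired changes for each genotype. A positive value (interaction) means that a gene changed upward more, or downward less, in mut than in WT cells, and a negative value means the reverse.

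All libraries came from MCF10A, an immortalized, non-tumorigenic human mammary epithelial cell line grown with horse serum, EGF, hydrocortisone, cholera toxin and insulin. The WT group consisted of the JUNB WT clones 27 and 2, and the mut group of the clones 1 and 65, which the labels call JUNB knock-out and the study calls mut, since an extended deletion made by CRISPR/Cas9 leaves a shortened JUNB polypeptide. Every clone was derived from a single cell, the WT clones had passed through the same cloning, and each clone was sequenced in 2 replications. A series such as WT 27-2 therefore means clone 27, replication 2. Where 4 values of a group are listed, they follow the order 27-1, 2-1, 27-2, 2-2 in WT and 1-1, 65-1, 1-2, 65-2 in mut cells. The treated groups received recombinant human TGFβ1 at 5 ng/ml for 72 h, renewed during the treatment, while the solvent groups, which the labels place at time point 0, received BSA in PBS. By the design of the experiment the solvent was applied for as long as the longest TGFβ1 treatment and all plates were collected at the same time after seeding, so time in culture was matched between the groups compared. With 2 clones a genotype the data cannot separate the mutation from other differences between clones.

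TGFβ1 is a secreted cytokine that binds a complex of type I and type II receptor kinases, which phosphorylate SMAD2 and SMAD3. Together with SMAD4 these enter the nucleus and regulate genes in cooperation with other transcription factors, among them the AP-1 dimers formed by JUN and FOS family proteins. JUNB is one of the JUN subunits of AP-1 and is itself induced by TGFβ. In mammary epithelial cells sustained TGFβ lowers proliferation and drives epithelial-mesenchymal transition (EMT), in which cells remodel junctions, cytoskeleton and extracellular matrix.

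The total counts of the 16 libraries ranged from 39702412 to 54438689, so that 3 counts corresponded to 0.0551 to 0.0756 CPM, the counts of a library scaled to a fixed total, and the 10 most abundant genes took 4.3 to 9.43% of the counts. All 11 mammary epithelial markers listed for the check of the cell type were detected in every library, with KRT5 at 3450 to 8160 CPM and EPCAM at 9.23 to 82.7 CPM. The leukocyte markers PTPRC, CD3E and LYZ and the endothelial marker VWF had medians of 0 CPM. JUNB itself had 89.7, 117, 94.0 and 90.0 CPM in the WT solvent libraries and 69.2, 128, 77.5 and 172 CPM in those of mut, and a count over the whole gene does not check a deletion inside it. The solvent libraries of WT 27-2 and mut 1-2 stood apart from the others of their group in genes that TGFβ1 raises. The matrix gene TGFBI, for example, had 1640 CPM in WT solvent 27-2 and 918 to 1160 CPM in the other 3, and 1840 CPM in mut solvent 1-2 and 566 to 740 CPM in the other 3. Without WT solvent 27-2 the interaction called 1854 genes and without mut solvent 1-2 it called 1469, beside 1831 with all libraries.

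A gene was called where the Benjamini-Hochberg adjusted p-value of the interaction was under 0.05 in limma-voom. Of 14865 genes tested 12.3% were called, of which 1397 (9.4% of those tested) were higher and 434 (2.92%) lower in the mut change. At an unadjusted p-value under 0.05 there were 3959 genes (26.6%). The median interaction of all genes was 0.10 log2 and it was 0.02 log2 with TMM factors, under which 674 (4.53%) were higher and 617 (4.15%) lower, so the surplus of higher calls depended on the scaling by library size. A fit that adds a term for each series, called the series block here, gave 3488 genes (23.5%). Of all genes 17.1% were higher and 6.33% lower in this fit, and list counts under the block stand beside these shares. The quasi-likelihood test of edgeR gave 1354 genes and DESeq2 gave 1655. Each clone mattered to the number of calls, which was 1600 without WT clone 27, 353 without WT clone 2, 1212 without mut clone 1 and 390 without mut clone 65. It was 923 without the series WT 2-2 and 1117 without mut 65-1, and 1244 to 2187 when any 1 library was left out.

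The calls were divided by the direction of the fitted changes, and each share of the calls is given beside that of the same class among all genes tested. Falls that were smaller in mut cells made up 1089 calls (59.5%, beside 43.6% of all genes), with median changes of -0.60 log2 in WT and -0.16 in mut cells. Rises that were smaller in mut cells made up 241 calls (13.2%, beside 14.9%), with medians of 0.89 and 0.23. The fitted changes had opposite signs in 167 genes with a rise in WT cells (9.12%, beside 9.37%) and in 281 genes with a fall in WT cells (15.3%, beside 12.3%), and 53 genes (2.89%, beside 19.8%) changed more in mut cells. The paired changes of the 4 mut and the 4 WT series did not overlap in 1672 of the calls (91.3%), and in 23.5% of all genes tested. In WT cells 13.9% of all genes rose and 38.4% fell, and in mut cells 7.81% rose and 16.3% fell. The fitted medians of all genes were -0.19 log2 for the WT change and -0.09 for the mut change.

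**Figure D1:**
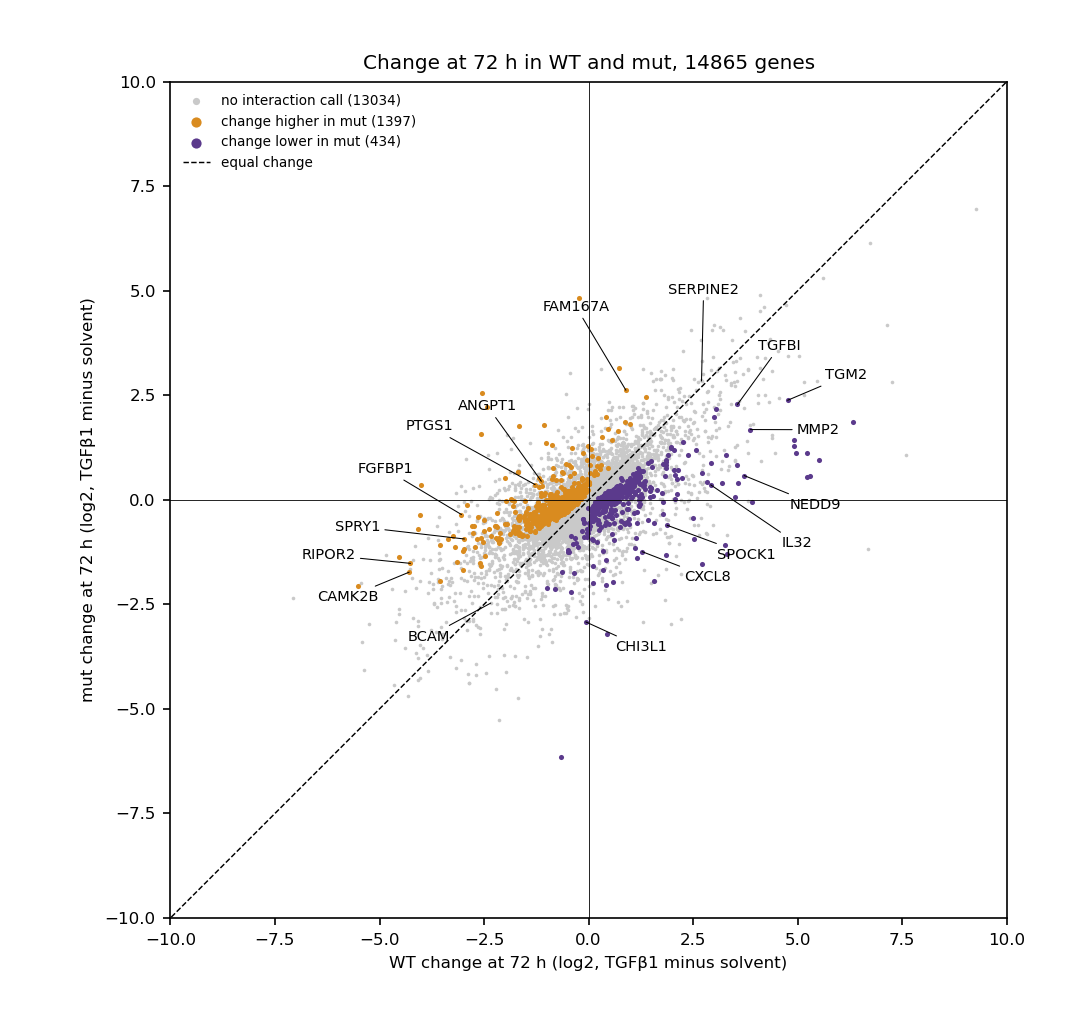
Fitted change from solvent to 72 h of TGFβ1 in WT cells (x axis, log2) and mut cells (y axis, log2), 1 point for each of 14865 genes. Orange points are the 1397 genes with a higher and purple points the 434 genes with a lower interaction; most of the called points lie between the dashed line of equal change and the horizontal line of no change in mut cells.

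Chemokines and cytokines were among the genes with a lower interaction. CXCL1, CXCL2, CXCL3 and CXCL8 are chemokines that attract neutrophils through CXCR2, IL32 and IL1B are proinflammatory cytokines and CSF3 is the granulocyte colony-stimulating factor. These 7 of 29 tested genes of the list were called (24.1%), all lower, beside 2.92% of all genes with a lower call, and the median interaction of the list was -0.64 log2 beside 0.10 for all genes. With TMM factors 8 were called and under the series block 14, of which 12 were lower and 2 higher. Without mut solvent 65-1 there were 11 calls, while each clone left out gave at least 5.

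CXCL8 (ENSG00000169429, chromosome 4, 73740519 to 73743716) had 21.2, 11.1, 15.4 and 9.80 CPM in the WT solvent libraries and 41.7, 34.4, 30.7 and 29.0 CPM at 72 h. Its mut levels were 19.4, 15.5, 19.0 and 32.3 CPM in solvent and 5.33, 6.46, 15.8 and 10.5 CPM at 72 h. All 4 WT series were higher and all 4 mut series lower with TGFβ1, and the 72 h levels of the genotypes did not overlap. CXCL8 rose by 1.28 ± 0.23 log2 in WT (SE, adjusted p-value 4.28e-05) and fell by 1.24 ± 0.26 in mut cells (adjusted p-value 0.000879), and the interaction was -2.52 ± 0.35 (adjusted p-value 5.64e-05).

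CXCL2 (ENSG00000081041, chromosome 4, 74097040 to 74099196) had 4.59 ± 0.30 CPM in WT solvent and 5.89 ± 1.23 CPM at 72 h, and 10.4 ± 2.45 and 3.17 ± 0.77 CPM in mut cells (SD, n = 4 each). Its WT change was 0.34 log2 (adjusted p-value 0.23) and its mut change -1.68 (adjusted p-value 3.34e-06). CXCL2 thus differed from CXCL8 in that the solvent level was already higher in mut cells, by 1.14 log2 (adjusted p-value 0.000429), and no WT change was called. CXCL3 had fitted changes of 1.85 log2 in WT and -1.33 in mut cells, which gave an interaction of -3.18 ± 0.46 (adjusted p-value 7.8e-05).

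IL32 (ENSG00000008517, chromosome 16, 3065297 to 3082192) had 8.28, 5.79, 7.53 and 2.77 CPM in WT solvent and 89.3, 38.2, 40.2 and 25.4 CPM at 72 h. The mut libraries had 2.19 to 7.17 CPM in solvent and 2.14 to 6.64 CPM at 72 h, so that all of the WT 72 h libraries stood above all of the others. The interaction was -2.56 ± 0.73 log2 (adjusted p-value 0.0201). This call was lost without mut solvent 1-2 (adjusted p-value 0.0673) and without either mut clone (up to 0.158).

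The neighbourhood of the transcription start was read for the called chemokine and NF-κB genes, since NF-κB binds sites next to the start of many chemokine genes. The windows shown here are 100 bases from the 250 bases before the RefSeq start (GRCh38.p14), given 5′ to 3′ on the strand of the gene, and capitals mark letters of the κB consensus. The consensus searched was GGGRNNYYCC on either strand, where R is A or G, Y is C or T and N is any base. Windows are shown only for called genes with a match. They show that CXCL1, CXCL2 and CXCL3 share the same 11 capital letters in similar surroundings, while IL32, TNFAIP3 and NFKBIZ hold other versions.
CXCL1, chr4:73869270-73869369, plus strand: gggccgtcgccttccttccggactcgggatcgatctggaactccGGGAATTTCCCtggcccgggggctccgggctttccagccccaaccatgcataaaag
CXCL2, chr4:74099218-74099317, minus strand: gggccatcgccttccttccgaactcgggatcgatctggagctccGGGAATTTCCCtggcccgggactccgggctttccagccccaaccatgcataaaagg
CXCL3, chr4:74038713-74038812, minus strand: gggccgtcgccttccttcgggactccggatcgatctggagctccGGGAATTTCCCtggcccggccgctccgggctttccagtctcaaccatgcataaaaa
IL32, chr16:3065260-3065359, plus strand: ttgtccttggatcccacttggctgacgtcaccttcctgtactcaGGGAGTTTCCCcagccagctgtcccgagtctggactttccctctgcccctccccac
TNFAIP3, chr6:137867159-137867258, plus strand: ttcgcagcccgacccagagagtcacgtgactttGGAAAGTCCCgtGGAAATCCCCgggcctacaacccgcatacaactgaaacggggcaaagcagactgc
NFKBIZ, chr3:101827740-101827839, plus strand: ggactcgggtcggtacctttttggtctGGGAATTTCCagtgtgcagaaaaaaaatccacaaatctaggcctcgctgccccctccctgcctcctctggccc

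In CXCL1, CXCL2 and CXCL3 the match nearest to the start begins 77 or 78 bases before it. In these genes and in IL32 the 11 letters hold 2 overlapping matches, 1 on each strand. Over the 250 bases and both strands, the κB consensus was present in 1349 of the 11690 tested genes with a promoter in the table (11.5%). It was present in 8 of 21 chemokine and cytokine genes (38.1%), in 4 of the 6 called ones (not in CXCL8 and IL1B), in 6 of 20 NF-κB regulator genes (30%) and in 2 of the 9 called ones. In other lists it was present in 10 of 23 integrin and focal adhesion genes (43.5%) and 7 of 34 interferon response genes (20.6%). It was also present in 3 of 18 matrix protease (16.7%), 8 of 62 respiratory chain (12.9%), 2 of 35 ribosome biogenesis (5.71%) and 1 of 27 NRF2 genes (3.7%). A share above that of all genes was thus not particular to the chemokine and NF-κB lists. Among all lower calls it was present in 50 of 355 (14.1%), and among the higher calls in 135 of 1140 (11.8%). The AP-1 motif TGANTCA was present in 4.4% of all genes, 3.66% of the lower and 3.16% of the higher calls. By list it was present in 6 of 21 chemokine and cytokine (28.6%), 5 of 18 matrix protease (27.8%) and 3 of 27 NRF2 genes (11.1%). It was present in 5.88% of interferon response, 4.84% of respiratory chain, 4.35% of integrin, 0% of NF-κB regulator and 0% of ribosome biogenesis genes. Among the called members it was present in 1 of 6 chemokine, 2 of 7 interferon response and 0 of 3 matrix protease genes. These are matches of letters close to the start, and sites with other letters and more distant elements were not searched. A gene without a match, such as CXCL8, can therefore still hold a κB site near its start.

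With all libraries, regulators of NF-κB signalling were called more often, as a share of the list, than the other 3 immune lists, except in DESeq2, where 10 of 23 were called beside 7 of 15 MHC class I genes. NF-κB is a family of dimeric transcription factors that inhibitor proteins hold in the cytoplasm and that immune receptors release. Of 23 tested genes 11 were called (47.8%, beside 2.92% of all genes with a lower call), all lower, with a median interaction of -0.49 log2. The calls comprised the subunits RELA, RELB and NFKB2, the inhibitors NFKBIB, NFKBIE, NFKBIZ, TNFAIP3 and TNIP1, the receptor-associated kinase IRAK2, and the target genes ICAM1 and PTGS2. TMM factors gave the same number, and 13 were called under the series block. The number was 4 without mut solvent 65-2 or mut 72 h 65-1, 5 without WT solvent 2-2, WT 72 h 27-1 or mut 72 h 1-1, 6 without WT solvent 2-1 and 7 without mut solvent 1-2. Without 1 clone it was 2 to 6.

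NFKBIZ (ENSG00000144802, chromosome 3, 101827991 to 101861022), whose product is an atypical nuclear IκB protein, had 12.2, 12.7, 11.4 and 11.7 CPM in WT solvent and 11.6, 13.8, 13.5 and 13.2 CPM at 72 h. In the mut series there were 13.1, 10.8, 13.2 and 14.1 CPM in solvent and 6.26, 6.76, 7.42 and 5.90 CPM at 72 h. The solvent levels of the genotypes overlapped and the 72 h levels did not. The interaction was -1.06 ± 0.17 log2 (adjusted p-value 0.000271). Its exons overlap those of NXPE3 on the same strand, and reads there can belong to either.

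IRAK2 (ENSG00000134070, chromosome 3, 10164919 to 10243745), a kinase of the interleukin 1 and Toll-like receptor pathway, rose in WT cells, with 7.17 ± 1.41 CPM in solvent against 16.2 ± 1.15 CPM at 72 h, and had 8.32 ± 2.73 and 7.14 ± 1.19 CPM in the mut groups (SD, n = 4 each). The interaction was -1.34 ± 0.27 log2 (adjusted p-value 0.00181), and the 4 mut changes, from -0.50 to 0.42, lay below the 4 WT changes, from 0.81 to 1.49. Such a separation was a condition for naming a candidate. The adhesion receptor ICAM1 had an interaction of -1.07 ± 0.28 (adjusted p-value 0.012). For RELB and NFKB2 the interaction was -0.87 and -0.85 (adjusted p-values 0.0205 and 0.00651), and for RELA it was -0.23 (0.0493).

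Of the interferon response genes 8 of 41 were called (19.5%, beside 2.92% of all genes with a lower call), all lower (median -0.30 log2). They comprised the interferon regulatory factors IRF1, IRF7 and IRF9, the signal transducer STAT2, and ISG20, PARP12, DTX3L and SAMD9L. Under the series block 18 were called, 17 of them lower, and without WT clone 2, mut clone 1 and mut clone 65 the numbers were 2, 2 and 0. IRF9 (ENSG00000213928, chromosome 14, 24161234 to 24168043), the DNA-binding part of the ISGF3 complex, had 8.09 to 9.90 CPM in WT solvent, 13.5 to 22 CPM in WT at 72 h, 9.84 to 11 CPM in mut solvent and 8.78 to 12.6 CPM in mut at 72 h. The 4 WT 72 h libraries were above the 12 others. The interaction of IRF9 was -1.03 ± 0.22 (adjusted p-value 0.00238), that of STAT2 -0.62 ± 0.14 (0.0048) and that of IRF1 -0.77 ± 0.18 (0.00642). The IRF9 call was lost without WT clone 2 or either mut clone (up to 0.0693). That of STAT2 was lost without either mut clone (up to 0.077), and that of IRF1 without WT clone 2 or mut clone 65 (up to 0.144). For IRF1 the WT change was -0.02, and it fell by 0.79 in mut cells (adjusted p-value 3.29e-05).

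MHC class I genes, which present peptides to T cells, gave 3 calls of 15 (20%, beside 2.92% of all genes with a lower call), all lower. There were 6 calls with TMM factors or with the series block. HLA-B fell by 0.79 ± 0.14 log2 in mut cells (adjusted p-value 0.000119) and had a WT change of -0.04 ± 0.14, an interaction of -0.75 ± 0.20 (adjusted p-value 0.0119). The paired changes were 0.36, -0.18, 0.06 and -0.39 in WT series and -0.85, -0.79, -0.88 and -0.63 in mut series. The HLA-B call was lost without WT clone 27 or either mut clone (adjusted p-value up to 0.0976). TAPBP, the tapasin of the peptide loading complex, had -0.42 ± 0.08 (adjusted p-value 0.00154). The call of HLA-C (-0.40, adjusted p-value 0.0405) was lost with 10 of the 16 libraries left out in turn (adjusted p-value up to 0.104). HLA genes are near-identical in parts, so reads can be split between them. Without WT 72 h 2-2 the list gave 5 calls.

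**Figure D2:**
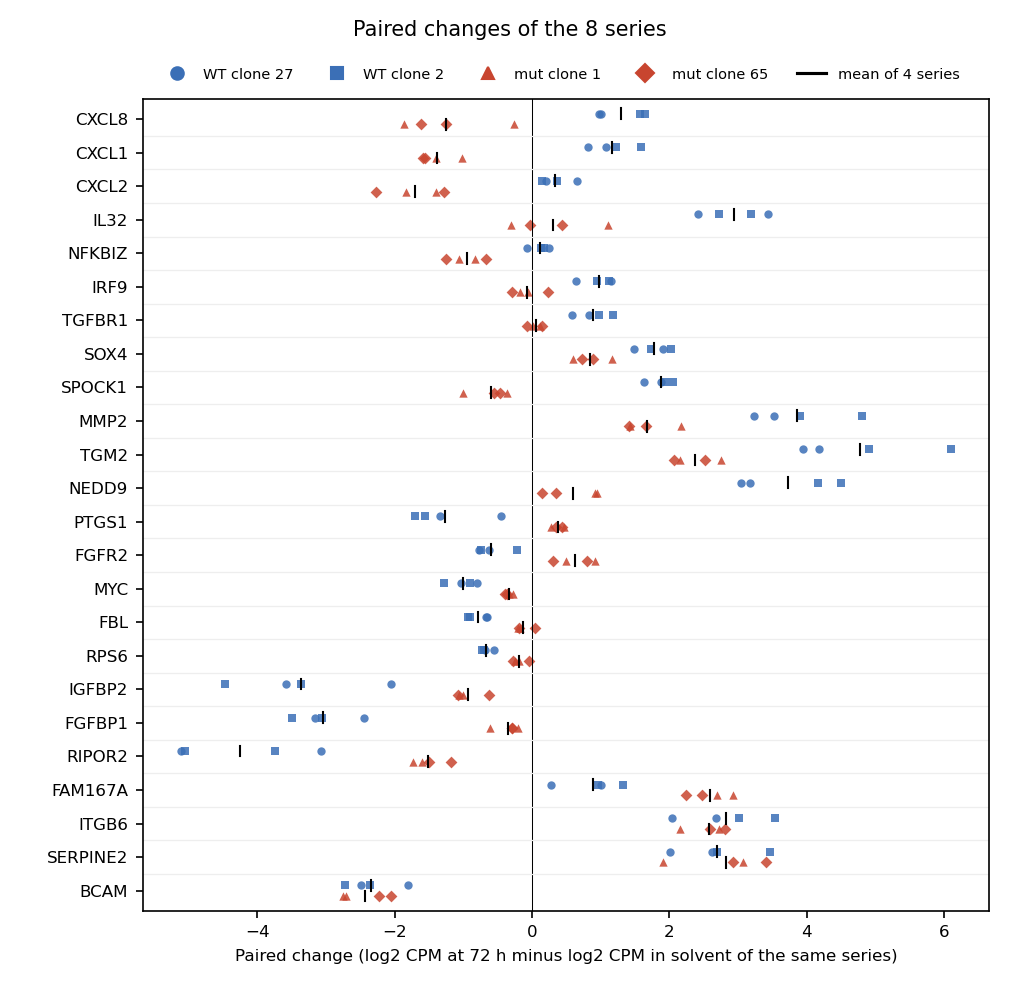
Paired change of each of the 8 series (log2 CPM at 72 h minus log2 CPM in solvent of the same clone and replication) for 24 genes, with symbols by clone and a black bar for the mean of the 4 series of a genotype. The blue WT and red mut symbols are apart for CXCL8 to FAM167A and intermingled for ITGB6, SERPINE2 and BCAM.

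Within the TGFβ pathway 2 of 18 receptors and SMADs were called, both lower, and this share of 11.1% was near the 12.3% of all genes. TGFBR1 (ENSG00000106799, chromosome 9, 99104038 to 99154192), the type I receptor, had 47.8, 40.2, 45.8 and 45.7 CPM in WT solvent and 85, 90.9, 68.5 and 90.2 CPM at 72 h. Mut cells had 39.9, 35.0, 49.2 and 39.4 CPM in solvent and 43.4, 38.9, 50.0 and 37.2 CPM at 72 h. WT levels at 72 h were above all others, and the mut levels of solvent and 72 h overlapped. TGFBR1 rose by 0.89 ± 0.11 log2 in WT cells (adjusted p-value 1.55e-07), its mut change was 0.06 ± 0.12 (0.744), and the interaction was -0.83 ± 0.16 (0.00119). This call was lost without WT clone 2 (adjusted p-value 0.0798). The type I receptor ACVR1 had an interaction of -0.47 ± 0.12 (adjusted p-value 0.0124). Without mut 72 h 1-2 the list gave 4 calls, as under the series block, where 23.5% of all genes were called. The median of the list was 0.03 log2, and -0.05 with TMM factors.

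Feedback regulators of the pathway gave 4 calls of 14 (28.6%, beside 12.3% of all genes). SMAD7 (ENSG00000101665, chromosome 18, 48919853 to 48950965), the inhibitory SMAD, rose in both genotypes, by 1.29 ± 0.10 log2 in WT and by 0.69 ± 0.09 in mut cells (adjusted p-values 5.31e-11 and 3.18e-06), which gave an interaction of -0.59 ± 0.14 (0.00447). The ubiquitin ligase SMURF1, which acts with SMAD7 on the receptors, had -0.62 ± 0.12 (adjusted p-value 0.00119). The SMAD7 call was lost without WT clone 2 or mut clone 65 (up to 0.159), and that of SMURF1 without mut clone 65 (0.0526). The corepressors SKI and TGIF2 were higher, by 0.29 and 0.42 (adjusted p-values 0.0268 and 0.031), and both calls were absent with TMM factors. The list gave 2 calls without WT solvent 2-2 or mut solvent 1-1, and 0 without mut clone 65.

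Of 18 tested AP-1 genes JUN was called (5.56%, beside 12.3% of all genes). The 4 WT changes of JUN were 1.86, 2.05, 1.59 and 2.36 and the 4 mut changes 1.16, 1.06, 1.87 and 0.95, so the ranges overlapped through mut 1-2. The adjusted p-value of its interaction of -0.70 was 0.0429, and the call was lost with 10 of 16 libraries left out in turn (adjusted p-value up to 0.106). Under the series block 5 AP-1 genes were called, beside 23.5% of all genes. In the fit without the block there were 3 without mut solvent 65-1 or mut 72 h 1-2. The interaction of JUNB was 0.28 ± 0.47 (95% confidence interval -0.68 to 1.23).

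EMT transcription factors gave 2 calls of 10 (20%, beside 12.3% of all genes). SOX4 (ENSG00000124766, chromosome 6, 21593751 to 21598619), an SMAD-induced factor that acts in EMT, had 41.7 to 52.6 CPM in WT solvent, 140 to 185 CPM in WT at 72 h, 35.7 to 49.2 CPM in mut solvent and 60.5 to 80.3 CPM in mut at 72 h. It rose in both genotypes, by 1.78 ± 0.13 and 0.85 ± 0.13 log2 (adjusted p-values 1.39e-11 and 1.92e-05), and the 72 h levels did not overlap. The interaction was -0.93 ± 0.18 (adjusted p-value 0.00131). ETS2 had 120 to 155 CPM in mut solvent and 63.3 to 90.6 CPM in all 12 others, with an interaction of -0.84 ± 0.18 (adjusted p-value 0.00305). Under the series block 5 factors were called, and 4 without WT solvent 27-2 or mut 72 h 1-2. Of the 16 epithelial regulators 0 were called in limma-voom, where 3 had an unadjusted p-value under 0.05. For these edgeR called 0, DESeq2 1 and the series block fit 5, and 2 were called without WT solvent 27-2.

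Matrix proteases and their inhibitors gave 6 calls of 29 (20.7%, beside 12.3% of all genes; median -0.40 log2), of which MMP2, ADAMTS1, MMP14 and TIMP2 were lower and ADAM15 and TIMP3 higher. MMP2 (ENSG00000087245, chromosome 16, 55389700 to 55506691), a gelatinase, had 4.17, 3.11, 7.53 and 2.42 CPM in WT solvent and 47.9, 46.5, 70.8 and 67.6 CPM at 72 h. The mut levels were 7.05, 10.6, 12.9 and 9.19 CPM in solvent and 31.8, 28.1, 34.7 and 29.0 CPM at 72 h. MMP2 rose in both genotypes, by 3.87 ± 0.38 and 1.68 ± 0.28 log2 (adjusted p-values 2.95e-09 and 6.24e-05), from a higher solvent level in mut cells to a lower level at 72 h. Its interaction was -2.19 ± 0.47 (adjusted p-value 0.00275). MMP14, the membrane protease that activates pro-MMP2, had -0.75 ± 0.15 (adjusted p-value 0.00144), and TIMP2, which takes part in that activation, -0.71 ± 0.13 (0.000679). ADAMTS1 had -1.99 ± 0.43 (adjusted p-value 0.0029). The number was 2 without WT clone 2 and 3 without mut clone 65.

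Among matrix proteins and their modifying enzymes 2 of 30 glycoproteins and proteoglycans were called (6.67%), 3 of 28 collagens and crosslinking enzymes (10.7%) and 1 of 9 laminin chains (11.1%), of which the last 2 shares were near the 12.3% of all genes. Under the series block the numbers were 10, 7 and 4, where 23.5% of all genes were called. TGFBI (ENSG00000120708, chromosome 5, 136028988 to 136063818), a secreted adhesion protein induced by TGFβ, had 13400, 14400, 12300 and 15800 CPM in WT cells at 72 h and 4590, 3290, 5330 and 3660 CPM in mut cells at 72 h. The interaction was -1.29 ± 0.34 (adjusted p-value 0.012) and was lost without WT clone 2 (0.31). LOX (ENSG00000113083, chromosome 5, 122063195 to 122078413), the lysyl oxidase that crosslinks collagen, had 8.75 to 11.4 CPM in WT solvent and 21.1 to 41.0 CPM at 72 h, and 20.2 to 27.8 and 24.8 to 31.4 CPM in mut cells. Its 72 h levels overlapped and its solvent levels did not. LOX rose by 1.64 ± 0.21 in WT cells (adjusted p-value 3.39e-07), its mut change was 0.24 ± 0.17 (0.348), and the interaction was -1.40 ± 0.28 (0.00139). The collagen COL17A1 of hemidesmosomes had -0.64 ± 0.14 (adjusted p-value 0.00312) and the prolyl hydroxylase subunit P4HA2 -0.56 ± 0.12 (0.00201). LAMA3, the α3 chain of laminins, had -0.87 ± 0.25 (adjusted p-value 0.0205), and lost its call without WT solvent 2-2, mut solvent 1-2 or mut 72 h 65-1 (adjusted p-value up to 0.0555). The LAMA3 call was also lost without WT clone 2 or either mut clone (up to 0.374). Without WT solvent 27-2, 5 glycoproteins and 2 laminin chains were called, and 2 laminin chains also without mut solvent 65-1, mut 72 h 1-2 or mut 72 h 65-2.

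SPOCK1 (ENSG00000152377, chromosome 5, 136975298 to 137598379), a secreted proteoglycan induced by TGFβ, was outside these lists and had 1 of the clearest separations. It had 22.2, 23.7, 34.3 and 23.9 CPM in WT solvent and 81.3, 90.8, 107 and 99.1 CPM at 72 h. The mut libraries had 38.4, 52.1, 56.1 and 55.2 CPM in solvent and 29.7, 35.3, 27.9 and 39.9 CPM at 72 h. It rose by 1.88 ± 0.16 log2 in WT cells and fell by 0.61 ± 0.16 in mut cells (adjusted p-values 2.75e-10 and 0.00454), and the interaction was -2.49 ± 0.22 (8.61e-08). The call was kept without each library, series and clone.

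TGM2 (ENSG00000198959, chromosome 20, 38127385 to 38166578), the tissue transglutaminase that crosslinks matrix proteins, had 39.9, 27.2, 35.0 and 14.7 CPM in WT solvent and 611, 811, 632 and 1010 CPM at 72 h. Its mut levels were 52.9, 68.3, 101 and 64.6 CPM in solvent and 355, 287, 449 and 371 CPM at 72 h. TGM2 rose in both genotypes, by 4.76 ± 0.25 and 2.38 ± 0.22 log2 (adjusted p-values 1.71e-13 and 1.2e-08), and its solvent levels, like its 72 h levels, did not overlap. The interaction was -2.39 ± 0.34 (adjusted p-value 6.29e-05).

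Integrins and focal adhesion genes gave 8 calls of 32 and actin and contractile genes 8 of 32, with 7 lower calls in each list. Both shares were 25%, beside 12.3% of all genes. The median interactions were -0.18 and -0.28 log2, and 14 were called in each list under the series block. Without WT clone 2 there were 2 and 3 calls, and without mut clone 65 there were 4 in each list. The focal adhesion calls comprised the integrin chains ITGAV and ITGB3, which form a vitronectin receptor, the kinase PTK2, and the adaptors TLN1, ILK, TNS1 and NEDD9, all lower, and caveolin CAV1, which was higher by 0.63. ITGAV rose by 1.18 ± 0.12 in WT and by 0.48 ± 0.12 in mut cells (adjusted p-values 4.27e-09 and 0.00326), which gave an interaction of -0.70 ± 0.17 (0.00587). TNS1, a tensin that links integrins to actin, rose in WT cells, with 13.3 ± 3.76 CPM in solvent against 29.9 ± 8.60 CPM at 72 h, and had 43.0 ± 5.38 and 35.3 ± 3.52 CPM in the mut groups (SD, n = 4 each), which gave an interaction of -1.45 ± 0.28 (adjusted p-value 0.00122).

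The actin calls comprised the myosins MYH9, MYO10 and MYO7B, the calponin CNN3, the caldesmon CALD1, and TAGLN2 and LIMA1, all lower, and the smooth muscle actin ACTA2, which was higher. MYO10 (ENSG00000145555, chromosome 5, 16661907 to 16936288), an unconventional myosin of filopodia, had 114 to 125 CPM in WT solvent, 174 to 199 CPM in WT at 72 h, 95.5 to 107 CPM in mut solvent and 71.6 to 91.5 CPM in mut at 72 h. None of these 4 ranges overlapped another, and the interaction was -0.88 ± 0.12 (adjusted p-value 2.41e-05). CNN3 changed in opposite directions, by 0.38 ± 0.08 in WT and by -0.41 ± 0.08 log2 in mut cells (adjusted p-values 0.00024 and 0.000387). ACTA2 had an interaction of 0.65 ± 0.16 (adjusted p-value 0.00934), and its exons overlap those of FAS on the other strand, which an unstranded library cannot tell apart.

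The junction lists differed in their share of calls. Of 16 adherens junction genes 4 were called (25%, beside 12.3% of all genes), with NECTIN2 at -0.44 ± 0.10, β-catenin CTNNB1 at -0.42 ± 0.11 and α-catenin CTNNA1 at -0.25 ± 0.06 (adjusted p-values 0.00578, 0.00918 and 0.00406), and T-cadherin CDH13 higher, by 0.60 (0.021). Under the series block 7 were called, and without WT clone 2 there were 0. Of 25 tight junction genes TJP1 alone was called, 4% of the list (-0.38, adjusted p-value 0.0275), and the call was lost with 6 of 16 libraries left out in turn (up to 0.0644). The block called 6 of the 25, beside 23.5% of all genes. Of 12 desmosome genes 0 were called in limma-voom, with 0 at an unadjusted p-value under 0.05 and 0 in edgeR and DESeq2. With the block 3 of the 12 were called, beside 23.5% of all genes. Of 19 keratins KRT8 was called, 5.26% of the list (-0.77, adjusted p-value 0.026), 3 with TMM factors and 9 with the block. The KRT8 call was lost with 5 of 16 libraries left out in turn, and KRT8 and KRT18 overlap on opposite strands. The keratin count ranged from 0 to 3 when 1 library was left out.

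YAP and TEAD pathway genes gave 5 calls of 20 (25%, beside 2.92% of all genes with a lower call), all lower. They were the cofactor VGLL3 (-0.97), AMOTL2 (-0.55), the kinase LATS2 (-0.50), TEAD3 (-0.46) and TEAD2 (-0.34). The number was 3 without WT solvent 2-1, WT solvent 2-2, WT 72 h 27-1, mut solvent 1-2, mut solvent 65-2 or mut 72 h 65-2. It was 2 without the series WT 2-2 or mut 65-2, and 1 without WT clone 2 or mut clone 65. The calls of VGLL3, AMOTL2 and LATS2 were each lost with some library left out (adjusted p-values up to 0.0657, 0.0896 and 0.0538).

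With all libraries, genes for making ribosomes had the highest share of calls of all lists with library-size scaling and under the series block, whereas NF-κB regulators had a higher share with TMM factors, in edgeR and in DESeq2. Ribosome biogenesis factors transcribe ribosomal RNA, process it in the nucleolus and assemble the subunits. Of 42 tested genes 27 were called, all higher (64.3%, beside 9.4% of all genes), with a median of 0.37 log2. They fell less in mut cells, with list medians of -0.51 log2 in WT and -0.13 in mut cells, where 40 and 6 genes fell. With TMM factors 15 were called and under the series block 37, all higher, while edgeR called 16 and DESeq2 17. The number was 19 to 33 when 1 library was left out, 14 without the series WT 2-2, and 7, 15 and 8 without WT clone 2, mut clone 1 and mut clone 65.

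FBL (ENSG00000105202, chromosome 19, 39834458 to 39846379), the methyltransferase fibrillarin of box C/D RNPs, had 185, 206, 209 and 192 CPM in WT solvent and 116, 110, 133 and 101 CPM at 72 h. In the mut series there were 192, 192, 183 and 178 CPM in solvent and 171, 169, 158 and 183 CPM at 72 h. The solvent levels overlapped, and the WT levels at 72 h lay below all others. FBL fell by 0.79 ± 0.08 in WT cells (adjusted p-value 8.16e-09), its mut change was -0.13 ± 0.08 (0.255), and the interaction was 0.66 ± 0.12 (0.000533). LYAR had an interaction of 0.63 ± 0.13 and NOP16 of 0.51 ± 0.12 (adjusted p-values 0.00229 and 0.00503). Nucleolin NCL and the RNA polymerase I subunit POLR1B had 0.49 and 0.51 (adjusted p-values 0.00177 and 0.00203).

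Of the G1 regulators 2 of 14 were called, MYC and CDK4, a share of 14.3% that was near the 12.3% of all genes. Both were higher, and both calls were kept without each library, series and clone. MYC (ENSG00000136997, chromosome 8, 127735434 to 127742951), a transcription factor that drives growth and ribosome production, had 610, 633, 544 and 710 CPM in WT solvent and 297, 340, 310 and 291 CPM at 72 h. Mut cells had 600, 654, 544 and 677 CPM in solvent and 477, 510, 447 and 513 CPM at 72 h. MYC fell in both genotypes, by 1.01 ± 0.08 and by 0.34 ± 0.08 log2 (adjusted p-values 1.26e-10 and 0.00283), and the mut levels at 72 h lay between those of WT at 72 h and of solvent. The interaction was 0.67 ± 0.12 (adjusted p-value 0.000517). CDK4, a kinase of the G1 phase, fell by 0.64 ± 0.06 in WT cells (adjusted p-value 3.8e-09), had a mut change of -0.15 ± 0.06 (0.0897) and an interaction of 0.50 ± 0.09 (0.000679). The E-box CACGTG, the motif of MYC dimers, was present before the start in 2 of 35 ribosome biogenesis genes (5.71%), in 0 of the 23 called ones and in 8.49% of all genes.

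Ribosomal proteins gave 16 calls of 75 (21.3%, beside 9.4% of all genes with a higher call), all higher, and their median of 0.14 log2 was near the 0.10 of all genes. With TMM factors 5 were called, where 4.53% of all genes had a higher call. There were 5 in edgeR and 8 in DESeq2, beside 1354 and 1655 of all 14865 genes. RPS6 (ENSG00000137154, chromosome 9, 19375715 to 19380236), a protein of the small subunit, fell in WT cells, with 898 ± 57.2 CPM in solvent against 566 ± 35.0 CPM at 72 h, and had 1000 ± 39.1 and 883 ± 87.8 CPM in mut cells (SD, n = 4 each), which gave an interaction of 0.48 ± 0.10 (adjusted p-value 0.00213). RPL13A had 0.56 ± 0.11 and RPS23 0.49 ± 0.09 (adjusted p-values 0.00109 and 0.00086). Ribosomal protein genes have many pseudogenes, so their counts carry an uncertainty from shared reads. The number was 8 without WT solvent 2-2 and 10 without WT 72 h 27-1 or WT 72 h 2-1, and 1, 9 and 3 without WT clone 2, mut clone 1 and mut clone 65.

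Subunits of the respiratory chain and ATP synthase gave 27 calls of 76 (35.5%, beside 9.4% of all genes), all higher (median 0.25 log2). With TMM factors 8 were called, where 4.53% of all genes had a higher call. There were 8 calls in edgeR and 9 in DESeq2, beside 1354 and 1655 of all 14865 genes. In WT cells 67 of the 76 fell and in mut cells 43, and none rose in either. SDHD, a membrane anchor of succinate dehydrogenase, had 103 to 106 CPM in WT solvent, 57.4 to 65.7 CPM in WT at 72 h, 108 to 124 CPM in mut solvent and 87.3 to 101 CPM in mut at 72 h, with an interaction of 0.49 ± 0.11 (adjusted p-value 0.00442). The number of calls was 16 without WT 72 h 2-2 or mut solvent 65-2, 17 without WT solvent 2-1 or mut 72 h 65-2, and 0 without WT clone 2 or mut clone 65.

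Without the series block, shares of calls below the 12.3% of all genes were found for DNA replication and mitosis. Of 41 replication genes CDT1, a licensing factor, was called, 2.44% of the list (0.60, adjusted p-value 0.0448), and 0 with TMM factors. Under the series block 22 of the 41 were called, all higher, beside 17.1% of all genes with a higher call. Their share was thus above that of all genes in that fit. Without the block the number ranged from 0 to 9 when 1 library was left out, with 9 without mut 72 h 65-2. The median of the list was 0.38 log2, close to that of ribosome biogenesis. Of 43 mitosis genes 0 were called in limma-voom, where 3 had an unadjusted p-value under 0.05, and 0 in edgeR and DESeq2. With the block 10 were called, all higher, beside 23.5% of all genes with a call and 17.1% with a higher call. The median of mitosis genes was 0.26, and 4 were called without mut 72 h 65-2.

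**Figure D3:**
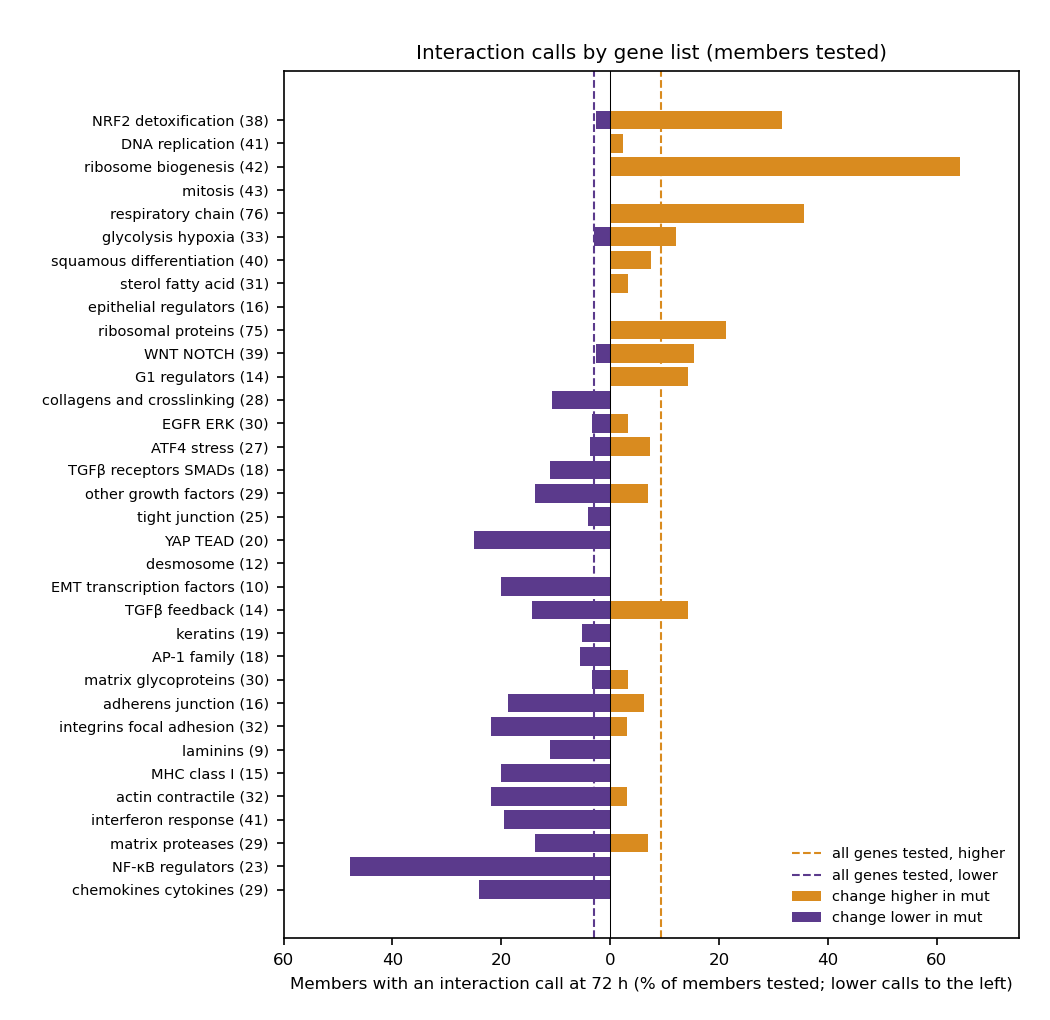
Share of the tested genes of each list with an interaction call at 72 h (x axis, percent; bars to the right are higher and bars to the left lower in the mut change), with the shares over all genes as reference. Ribosome biogenesis reaches 64.3% higher and NF-κB regulators 47.8% lower, beside 9.4% and 2.92% of all genes.

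Epithelial differentiation and growth factor genes contained several large single differences. FGFBP1 (ENSG00000137440, chromosome 4, 15935577 to 15938740), a secreted carrier that releases FGFs from the matrix, had 229, 209, 140 and 181 CPM in WT solvent and 25.6, 25.1, 25.6 and 16 CPM at 72 h. The mut levels were 180, 155, 86.0 and 75 CPM in solvent and 117, 127, 74.7 and 61.0 CPM at 72 h, which overlapped. FGFBP1 fell by 3.04 ± 0.32 in WT cells (adjusted p-value 8.58e-09), its mut change was -0.35 ± 0.27 (0.371), and the interaction was 2.69 ± 0.42 (0.000155). It was 1 of 3 called genes of 40 squamous differentiation genes (7.5%, beside 12.3% of all genes), with periplakin PPL (1.66) and S100A14 (0.85). With the block 19 of these were called, 10 higher and 9 lower, and 6 without WT solvent 27-2.

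The 6 calls of 29 other growth factor genes (20.7%, beside 12.3% of all genes) included IGFBP2 and FGFR2 on the higher and BMP2, PDGFC, BMP1 and IGF1R on the lower side. The block called 12. IGFBP2 (ENSG00000115457, chromosome 2, 216632828 to 216664436), a binding protein of insulin-like growth factors, had 33.2 to 66.6 CPM in WT solvent, 2.97 to 7.93 CPM in WT at 72 h, 215 to 331 CPM in mut solvent and 107 to 202 CPM in mut at 72 h. None of these ranges overlapped, and the interaction was 2.41 ± 0.44 (adjusted p-value 0.0007). FGFR2 (ENSG00000066468, chromosome 10, 121478332 to 121598458), a receptor of FGFs, had 16, 13.6, 14.2 and 15 CPM in WT solvent and 10.3, 11.7, 8.23 and 8.91 CPM at 72 h. The mut libraries had 7.43, 11.4, 10.0 and 7.52 CPM in solvent and 14.1, 14.1, 14 and 13.1 CPM at 72 h. FGFR2 fell by 0.61 ± 0.16 in WT cells and rose by 0.63 ± 0.16 in mut cells (adjusted p-values 0.00168 and 0.00315), so that the order of the genotypes was reversed between solvent and 72 h, with an interaction of 1.24 ± 0.22 (0.000562). PDGFC had -0.96 ± 0.27 (adjusted p-value 0.0183). This call was lost without mut solvent 1-2 (0.0522) and without the series WT 2-1, WT 2-2 or mut 65-2 (up to 0.107). It was also lost without WT clone 2 or either mut clone (up to 0.382).

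SPRY1, an inhibitor of FGF and EGF receptor signalling, was 1 of 2 called among 30 EGFR and ERK pathway genes (6.67%, beside 12.3% of all genes), with IER3 (-0.44). SPRY1 fell in both genotypes, by 2.97 ± 0.31 and by 0.94 ± 0.17 (adjusted p-values 1.02e-08 and 0.000146), an interaction of 2.04 ± 0.36 (0.000533). The block called 7 genes of that list, beside 23.5% of all genes. Without the block 4 were called when WT solvent 27-2, mut solvent 65-2 or mut 72 h 1-1 was left out. Of 39 WNT and NOTCH genes 7 were called (17.9%, beside 12.3% of all genes). WNT9A was lower (-1.39 ± 0.34, adjusted p-value 0.00783) and WNT10B, HES1, LRP5, NOTCH1, SFRP1 and FZD6 were higher. NOTCH1 fell by 1.07 ± 0.10 in WT and by 0.56 ± 0.10 in mut cells, which gave an interaction of 0.51 ± 0.14 (adjusted p-value 0.0143), and LRP5 had 0.53 ± 0.11 (0.00201). The NOTCH1 call was lost without WT clone 2 or either mut clone (up to 0.301), and that of LRP5 without mut clone 1 (0.0597). TMM factors gave 3 calls of that list and the block 16, and there were 4 without WT solvent 2-1 or mut solvent 1-2.

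NRF2 target and detoxification genes gave 13 calls of 38 (34.2%, beside 12.3% of all genes), with a median of 0.42 log2. Of these calls 12 were higher and HMOX1 was lower. The higher ones included the aldehyde dehydrogenases ALDH3A1 and ALDH3A2, the aldo-keto reductases AKR1C2 and AKR1C3, the quinone reductase NQO1, and GCLC and GSR of glutathione metabolism. AKR1C2 (ENSG00000151632, chromosome 10, 4987775 to 5018031) had 33.9 to 76.5 CPM in WT solvent, 51.4 to 106 CPM in WT at 72 h, 112 to 150 CPM in mut solvent and 377 to 493 CPM in mut at 72 h. It rose by 1.70 ± 0.22 in mut cells (adjusted p-value 1.26e-06), its WT change was 0.47 ± 0.24 (0.0959), and the interaction was 1.23 ± 0.32 (0.0116). This call was lost without the series mut 65-2 (adjusted p-value 0.0599) and without either mut clone (up to 0.172). AKR1C genes are near-identical copies and can share reads. HMOX1, the heme oxygenase, rose by 2.70 ± 0.38 in WT cells (adjusted p-value 1.12e-06) and had a mut change of 0.63 ± 0.38 (0.243), with an interaction of -2.07 ± 0.54 (0.0115). The HMOX1 call was lost without the series mut 65-1 or mut 1-2 (adjusted p-value up to 0.0635). It was also lost without WT clone 2 or either mut clone (up to 0.19). With TMM factors 7 genes were called, with the block 21, in edgeR 6 and in DESeq2 8. The number was 8 without WT solvent 2-2 and 1 without mut clone 65.

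The other metabolic lists had shares of calls of 3.23 to 15.2%, beside 12.3% of all genes. Of 27 ATF4 and stress genes, with 3 calls (11.1%), DDIT4, an inhibitor of mTORC1, and PHGDH of serine synthesis were higher and HERPUD1 of ER-associated degradation was lower. DDIT4 (ENSG00000168209, chromosome 10, 72273919 to 72276036) had 661 to 763 CPM in WT solvent, 211 to 273 CPM in WT at 72 h, 743 to 1000 CPM in mut solvent and 532 to 816 CPM in mut at 72 h, with an interaction of 1.11 ± 0.19 (adjusted p-value 0.000383). The call of PHGDH was lost without WT solvent 2-2 (adjusted p-value 0.0515) and that of HERPUD1 with 5 of 16 libraries left out in turn (up to 0.061). The block called 11 genes of that list, and 5 were called without WT 72 h 27-1 or mut 72 h 1-1. Of 33 glycolysis and hypoxia genes 5 were called (15.2%), 1 with TMM factors and 14 with the block, and the number was 2 to 5 when 1 library was left out, with 2 without WT solvent 2-1 or WT 72 h 2-2. Of 31 sterol and fatty acid genes TM7SF2 was called (1.01, adjusted p-value 0.0206), and 0 to 3 when 1 library was left out. With the block 8 of the 31 were called, beside 23.5% of all genes. The TM7SF2 call was lost without WT 72 h 27-2 (0.0538).

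Genes that fell in WT cells but had a change of the opposite sign in mut cells included PTGS1 (ENSG00000095303, chromosome 9, 122370530 to 122395703), the constitutive cyclooxygenase. It had 11.1, 14, 6.4 and 11.8 CPM in WT solvent and 4.37, 4.29, 4.65 and 4 CPM at 72 h. Its mut levels were 7.22, 7.58, 6.18 and 8.71 CPM in solvent and 9.95, 10.2, 7.51 and 11.1 CPM at 72 h. PTGS1 fell by 1.28 ± 0.20 in WT cells (adjusted p-value 3.62e-06), its mut change was 0.36 ± 0.17 (0.118), and the interaction was 1.64 ± 0.26 (0.000171). The 4 mut changes were 0.28 to 0.46 and thus varied less than the WT changes of -1.70 to -0.46.

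ANGPT1 (ENSG00000154188, chromosome 8, 107249482 to 107498055), a ligand of the TIE2 receptor, fell in WT cells, with 3.60 ± 0.46 CPM in solvent against 1.72 ± 0.57 CPM at 72 h, and rose in mut cells, with 9.11 ± 1.24 and 12.3 ± 2.02 CPM (SD, n = 4 each), with an interaction of 1.58 ± 0.34 (adjusted p-value 0.00307). RGS2, which inactivates G proteins, had 1.45 ± 0.29 (adjusted p-value 0.00164), and PTPRZ1, a receptor phosphatase, 1.40 ± 0.30 (0.00231). RGS2 and PTPRZ1 had lower solvent levels in mut cells, by 1.13 and 1.86 log2 (adjusted p-values 0.000252 and 9.62e-07), whereas that of ANGPT1 was higher, by 1.33 (8.31e-05). SULF1, a sulfatase of heparan sulfate, rose by 1.28 ± 0.21 in mut cells (adjusted p-value 4.36e-05) with a WT change of -0.02 ± 0.30. Its interaction of 1.30 (adjusted p-value 0.0198) was lost without WT solvent 2-2 or WT 72 h 27-1 (up to 0.0605).

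Changes that were larger in mut cells were rare. CHI3L1 (ENSG00000133048, chromosome 1, 203178931 to 203186704), a secreted chitinase-like glycoprotein, had 18.4, 13.7, 11 and 15.6 CPM in mut solvent and 2.02, 2.06, 1.76 and 1.81 CPM at 72 h. In WT cells it had 2.18, 2.64, 0.351 and 2.49 CPM in solvent and 6.70, 1.91, 0.647 and 0.594 CPM at 72 h, with no shared direction, since clone 27 was higher and clone 2 lower with TGFβ1. The interaction was -2.85 ± 0.86 (adjusted p-value 0.0278), and this call was lost without WT solvent 27-2, WT 72 h 27-1 or WT 72 h 2-1 (up to 0.126) and without any 1 clone.

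FAM167A (ENSG00000154319, chromosome 8, 11421476 to 11475908) rose in both genotypes, by 0.89 ± 0.19 in WT and by 2.62 ± 0.31 log2 in mut cells (adjusted p-values 0.000306 and 3.81e-07), from 35.4 ± 9.54 to 64.3 ± 7.10 CPM and from 5.39 ± 1.48 to 33.3 ± 12.2 CPM (SD, n = 4 each). The interaction was 1.73 ± 0.36 (adjusted p-value 0.0022) and was kept without each library, series and clone. CLU, the secreted chaperone clusterin, fell by 0.64 ± 0.20 in WT and by 1.73 ± 0.19 in mut cells (adjusted p-values 0.00721 and 1.17e-07), which gave an interaction of -1.09 ± 0.27 (0.00815). SP6 and ABTB3 also fell more in mut cells, with interactions of -1.11 and -1.31 (adjusted p-values 0.0339 and 0.0277), which were lost with 9 and 6 of the 16 libraries left out in turn (up to 0.0702 and 0.0728).

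The following genes had the largest changes in WT cells among those whose 95% confidence interval of the interaction lay within -1 to 1 log2, limits that called genes such as SMAD7 and CDK4 also meet. ITGB6 (ENSG00000115221, chromosome 2, 160099667 to 160200313), an integrin chain that takes part in the activation of latent TGFβ, had 88.6 to 193 CPM in WT solvent, 795 to 1070 CPM in WT at 72 h, 85.9 to 158 CPM in mut solvent and 539 to 706 CPM in mut at 72 h. It rose by 2.82 ± 0.22 in WT and by 2.57 ± 0.22 in mut cells (adjusted p-values 5.97e-11 and 2.02e-09), and the interaction was -0.25 with an interval from -0.88 to 0.37. SERPINE2, a protease inhibitor of the matrix, rose by 2.70 ± 0.25 and 2.84 ± 0.27 (interaction 0.14, interval -0.61 to 0.89), and GPAM, LPAR5 and ARHGEF40 likewise had intervals within these limits. On the falling side, BCAM (ENSG00000187244, chromosome 19, 44809071 to 44821421), a laminin receptor, fell by 2.34 ± 0.25 in WT and by 2.47 ± 0.17 in mut cells (interaction -0.14, interval -0.75 to 0.49). The coreceptor TGFBR3 fell by 1.75 ± 0.18 and 1.54 ± 0.16 (interaction 0.22, interval -0.28 to 0.71). These intervals leave differences of up to 1 log2 possible and do not show equal changes.

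An interaction can come from a genotype difference in solvent, at 72 h or in both, and the 4 groups were therefore compared pairwise. Of the 1831 called genes 1451 (79.2%) differed between mut and WT at 72 h only, 133 (7.26%) in solvent only, 174 (9.5%) in both states and 73 (3.99%) in neither. For comparison, 12.7% of all genes were called between genotypes in solvent and 39.2% at 72 h. FBL, MYC, CXCL8, IL32 and TGFBR1 belonged to the genes with a call at 72 h only. NEDD9, LOX, TNS1 and ETS2 had a call in solvent only, with higher levels in mut solvent by 3.22, 1.27, 1.72 and 0.84 log2 (adjusted p-values 1.61e-05, 0.000157, 1.76e-06 and 3.53e-05) and differences of 0.08, -0.13 and 0.28 at 72 h for the first 3 and near 0 for ETS2. Of the 174 genes, 53 had differences of opposite signs in solvent and at 72 h, among them SPOCK1 (0.97 and -1.52), TGM2 (1.33 and -1.06), MMP2 (1.30 and -0.89) and FGFR2 (-0.72 and 0.52). The NF-κB regulators had a median genotype difference of 0.27 log2 in solvent and -0.17 at 72 h, and ribosome biogenesis had -0.08 and 0.31. Ribosomal proteins were higher in mut cells in both states, with medians of 0.32 and 0.46, beside -0.01 and 0.10 for all genes.

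**Figure D4:**
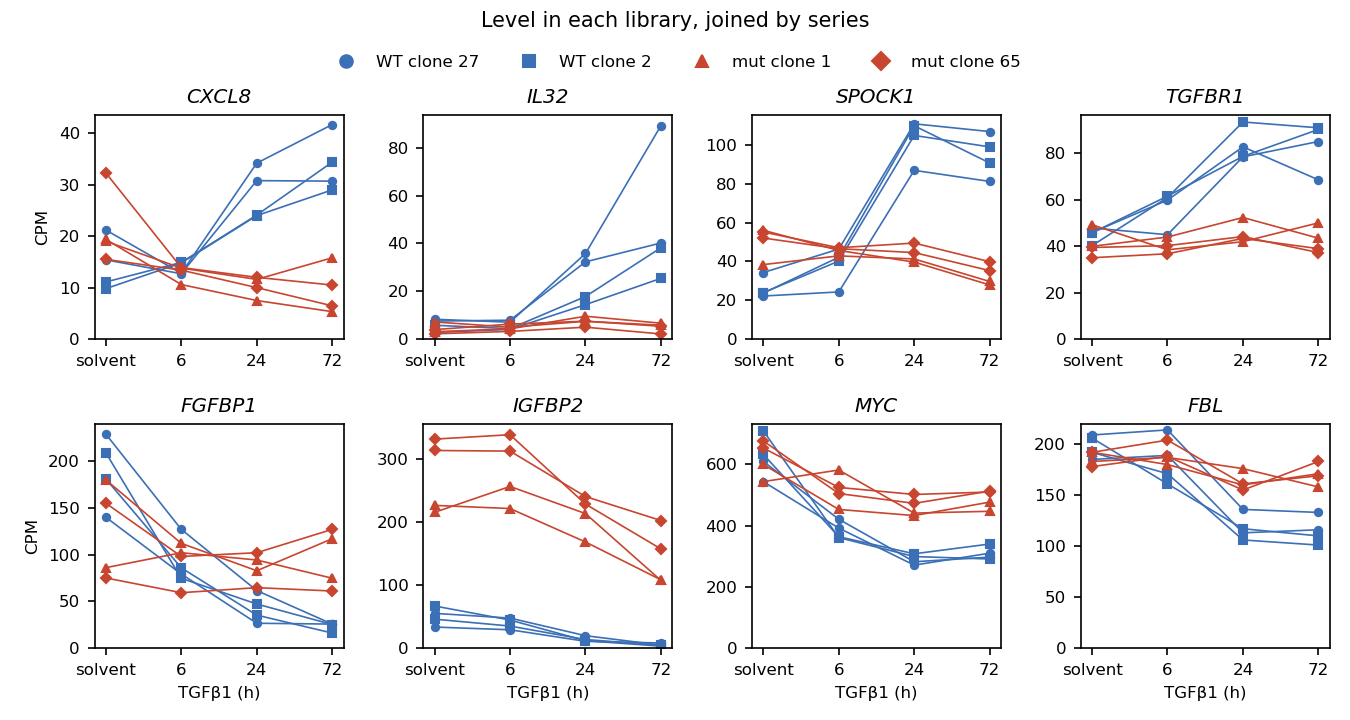
CPM (y axis, linear, from 0) of 8 genes in the solvent libraries and after 6, 24 and 72 h of TGFβ1 (x axis), with 1 symbol for each library and lines joining the libraries of a series. At 72 h all WT (blue) series of CXCL8, IL32, SPOCK1 and TGFBR1 are above all mut (red) series, and FGFBP1, MYC and FBL end lower in WT than in mut series.

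The same difference of changes was computed at 6 h and 24 h from the treated libraries of these times. All 3 times share the solvent libraries, so their values are given side by side and are not independent. The interaction called 11 genes at 6 h (0.074%) and 1434 at 24 h (9.65%), and the median over all genes was 0.02 and 0.08 log2, beside 0.10 at 72 h. The list medians at 6, 24 and 72 h were -0.04, -0.28 and -0.49 for NF-κB regulators and -0.10, -0.45 and -0.64 for chemokines and cytokines. They were 0.20, 0.48 and 0.37 for ribosome biogenesis, 0.01, 0.53 and 0.26 for mitosis and 0.10, 0.78 and 0.38 for DNA replication, so that the medians of these 3 lists were highest at 24 h. CXCL8 had interactions of -0.68, -2.07 and -2.52, NFKBIZ of -0.07, -0.61 and -1.06, SPOCK1 of -0.68, -2.20 and -2.49, and MYC of 0.43, 0.68 and 0.67. HLA-B had 0.11, 0.02 and -0.75, and AKR1C2 had -0.09, -0.08 and 1.23, so their values at 6 and 24 h were near 0.

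**Figure D5:**
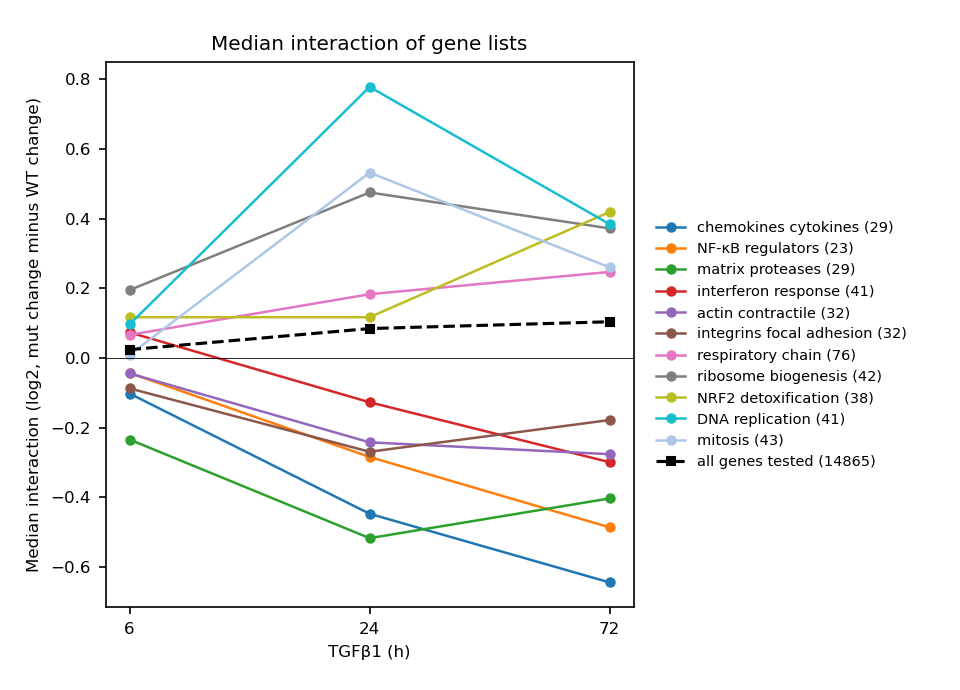
Median interaction (log2) of gene lists at 6, 24 and 72 h, with the median of all genes for comparison. NF-κB regulators and chemokines go down to -0.49 and -0.64 at 72 h, while ribosome biogenesis, mitosis and DNA replication are highest at 24 h.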

How the data were processed

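RNA was measured by poly(A) RNA-seq (TruSeq RNA v2, unstranded, paired reads) in 32 libraries of MCF10A clones. The authors trimmed the reads, aligned them with STAR to GRCh38 and deposited raw counts per gene; versions are not given in the sources used here. Groups, clones and replications were taken from the labels. The deposited counts of 17788 genes were filtered with filterByExpr (minimum count 10, minimum total 15), which left 14865 genes, and fitted with limma-voom (limma 3.58.1, edgeR 4.0.16, R 4.3.3) over all 32 libraries, 1 mean per condition, with library-size scaling. Tests were two-sided, with Benjamini-Hochberg adjustment over all genes tested and a threshold of 0.05. Replications of a clone are not independent clones, so p-values measure mainly the spread between libraries. Paired changes are differences of log2 CPM within a series. Libraries of a series deviated together (correlations 0.2 to 0.584 in 8 series), so a blocked fit with a term for each series (series block) was added. The other alternatives were TMM factors, edgeR's quasi-likelihood test, DESeq2 1.42.0, other filters, thinning, sums over a clone, a minimum fold and omissions of libraries, series and, chosen after seeing the data, clones. Gene positions came from GENCODE 44 (17763 genes matched) and promoters from RefSeq.

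The gene lists and the members were chosen with earlier results of these data known. Named with full values were JUNB, the called AP-1 and EMT transcription factors, and the candidates with the largest interaction, 6 for each class of change and 3 for each list. A candidate had a call, at least 10 CPM in a group, paired changes that did not overlap and a call in the same direction with TMM factors and with the block. The 5 largest rises and 5 largest falls in WT cells with a 95% confidence interval of the interaction within -1 to 1 were added. Other list members were named after their values were seen. The fit was tested on simulated data made for the 72 h interaction, where it recovered 26 of 50 genes changed 1.5-fold, 39 of 50 changed 2-fold and 47 of 50 changed 4-fold among 14734 genes, with 13 false calls. The changed genes were drawn from those with high mean counts. Each library was simulated independently, without an effect of clone or series. The simulation therefore does not give the recovery or the false calls to be had with 2 clones a genotype.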

Additional observations from a re-analysis of the deposited data

Results flagged for a closer look

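The paired changes of the named genes in each genotype, and the library totals of each group, were examined for 1 value standing far from the other 3. Dixon's ratio at the 95% level was used in 208 groups of 4, where chance alone gives about 1 in 20. It flagged 8 values, all of them paired changes, which is fewer than 1 in 20 of these groups. The change of ABTB3 was -1.34 log2 in WT 2-2 and that of ETS2 was -0.43 in the same series. RGS2 had 0.1 in mut 65-1. In mut 65-2 the change was -0.63 for IGFBP2, -0.45 for TJP1, -0.57 for AMOTL2, -0.24 for LATS2 and 0.04 for FBL, so 5 of the 8 such values came from that series.

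The effect of TGFβ1 at 72 h differed between the genotypes, by the test of the difference itself in limma-voom, in 1831 genes.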

How the results depend on the processing

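The interaction at 72 h was called for 3488 genes with the series as replicate block, 2783 with the block and TMM factors, 626 from sums over a clone, 353, 1212 and 390 without clones WT 2, mut 1 and mut 65, and 229 with a minimum change of 1 log2. Leaving out 1 library or series gave 923 to 2187. At 24 h the numbers were 860 with TMM factors, 2782 with the block, 2280 with the block and TMM factors, 314 from clone sums, 932 in edgeR, 614, 641, 301 and 459 without WT 27, WT 2, mut 1 and mut 65, and 134 with the minimum change, and 724 to 1433 by single omissions. At 6 h they were 1 for the groups alone, 46 with the block, 45 with the block and TMM factors, 0 by paired changes, 0 from clone sums, 17 in edgeR, 46 in DESeq2, 63, 0, 1 and 0 without the same clones, and 1 with the minimum change, and 0 to 19 by single omissions. The WT change was called for 4360 genes without WT 2 and 1500 with the minimum change, and 6213 to 7910 by single omissions. The mut change was called for 1131 without mut 1, 1751 without mut 65 and 795 with the minimum change, and 2232 to 3959 by single omissions. Between genotypes in solvent there were 1239 from clone sums, 1053 without mut 1, 974 without mut 65 and 495 with the minimum change, and 1242 to 1817 by single omissions, and at 72 h 1034 with the minimum change and 4892 to 5776 by single omissions. Among the 102 named genes, for which signs were compared, the interaction changed sign in genes without a call, namely LPAR5 (0.057 without WT 2), ARHGEF40 (0.242 without WT 2, 0.195 without mut 65), SERPINE2 (-0.0434 in edgeR, -0.0578 in DESeq2, -0.237 without WT 27, -0.206 without mut 65), ITGB6 (0.204 without WT 2), BCAM (0.0732 without WT 27, 0.19 without mut 1) and GAS1 (-0.0239 without WT 2, -0.00704 without mut 65). With 1 library or series left out, sign changes occurred in LPAR5 (-0.22 to 0.0966), ARHGEF40 (-0.191 to 0.181), SERPINE2 (-0.123 to 0.527), BCAM (-0.303 to 0.0528), GAS1 (-0.0595 to 0.327) and CLMN (-0.0463 to 0.36). The cause was not tested.

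Of 91 named genes with a call, all kept it under TMM factors, the block, both together, thinning and a mean count of at least 50. For genes named as candidates, a call with TMM factors and with the block was a condition of naming. Their calls under these settings were therefore fixed in advance and are no check of them. The call was lost by JUN without the filter, by CYP1B1 in edgeR and DESeq2, by 8 genes in the groups alone, by 12 by paired changes, by 28 from clone sums and by 48 with the minimum change. It was lost by 20 genes when 1 library, by 28 when 1 series and by 69 when 1 clone was left out, and 22 kept it without each of these. With 2 clones a genotype, the calls depend on single clones, and depth leaves genes near 3 counts unresolved.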
